A study of Mus musculus with 6 samples.

Results

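The complement and coagulation factors described here are 41 genes of the 34745 in the expression table of mouse liver tumors. They were taken by symbol from a list of plasma proteins, a rule that uses no measured value, although the list was drawn up with earlier results of these data known. All 41 were found in the table, 20 of them complement genes and 21 coagulation genes, and all 41 passed the filter on low counts. *Serping1*, listed with complement, and *Vtn*, listed with coagulation, code for proteins that act in both systems.

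RNA was sequenced from 3 liver tumors of Prmt3f/f mice (replicates 7, 66 and 71) and 3 of Prmt3LKO mice (replicates 92, 93 and 94), and the comparison asks how loss of *Prmt3* changes the tumor transcriptome. Both genotypes carried the floxed *Prmt3* alleles and received the same carcinogen course: diethylnitrosamine (DEN) at 25 mg/kg when 2 weeks old, then repeated injections of 10% carbon tetrachloride (CCl4) at 0.5 ml/kg from week 6, with sacrifice at week 26. Prmt3LKO mice also carried Alb-Cre, a recombinase under the albumin promoter, and the paper describes the knockout as specific to hepatocytes. *Prmt3* in other cells of the tumor was not measured apart. The labels call the groups WT and Prmt3-KO, and they do not say whether the tumors of a group came from separate mice, so p-values measure only the spread between these tumors.

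Complement is a cascade of plasma proteases that marks microbes and damaged cells. The classical pathway starts with antibody, the lectin pathway with sugars, and the alternative pathway runs on its own and amplifies the others. All of them cut the central protein C3 and end in the membrane attack complex, a pore built from the terminal components. Coagulation is a second protease cascade that ends in thrombin, which turns fibrinogen into fibrin, and inhibitors and plasmin keep the clot in check. Hepatocytes make most of these proteins, whereas properdin comes mainly from leukocytes.

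The promoters of 5 members are shown, chosen for the RNA contrasts described here, and no link of sequence to RNA was tested. RefSeq sequence of GRCm38.p6 is given for the 250 bases before each start, 5′ to 3′ on the strand of the gene. *Fgb* and *Fgg* belong to 1 cluster of fibrinogen genes whose RNA moved together between tumors, *C8a* and *C8b* are neighboring genes whose RNA did not, and *Cfp* is the member whose groups were apart. Capitals mark the letters TTNNGCAA on either strand, a form of the site of C/EBP, a family of factors active in the liver.
Fgb: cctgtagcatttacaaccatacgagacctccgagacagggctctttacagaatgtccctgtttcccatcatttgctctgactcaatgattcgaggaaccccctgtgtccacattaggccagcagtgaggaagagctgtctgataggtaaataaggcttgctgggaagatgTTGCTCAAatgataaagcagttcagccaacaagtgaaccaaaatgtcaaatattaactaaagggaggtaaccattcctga
Fgg: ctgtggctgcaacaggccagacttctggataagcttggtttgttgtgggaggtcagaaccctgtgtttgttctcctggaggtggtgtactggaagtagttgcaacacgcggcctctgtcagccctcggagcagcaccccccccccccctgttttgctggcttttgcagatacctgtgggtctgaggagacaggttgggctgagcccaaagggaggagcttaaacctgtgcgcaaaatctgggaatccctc
C8a: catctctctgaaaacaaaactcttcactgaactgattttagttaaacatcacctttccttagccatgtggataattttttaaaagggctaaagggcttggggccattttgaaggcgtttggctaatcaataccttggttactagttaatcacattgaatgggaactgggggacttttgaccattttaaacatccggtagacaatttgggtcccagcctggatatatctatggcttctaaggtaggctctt
C8b: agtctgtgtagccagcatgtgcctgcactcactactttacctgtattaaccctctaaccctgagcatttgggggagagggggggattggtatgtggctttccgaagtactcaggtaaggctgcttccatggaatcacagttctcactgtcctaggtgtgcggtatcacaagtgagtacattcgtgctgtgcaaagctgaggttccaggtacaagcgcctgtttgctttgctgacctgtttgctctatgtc
Cfp: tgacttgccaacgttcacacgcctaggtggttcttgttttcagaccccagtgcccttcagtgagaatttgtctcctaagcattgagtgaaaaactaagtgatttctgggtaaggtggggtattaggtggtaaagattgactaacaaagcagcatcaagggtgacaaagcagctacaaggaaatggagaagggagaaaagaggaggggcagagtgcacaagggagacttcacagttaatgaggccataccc
The windows lie at chr3:83049864-83050113 (minus strand) for *Fgb*, chr3:83007474-83007723 (plus strand) for *Fgg*, chr4:104876399-104876648 (minus strand) for *C8a*, chr4:104766067-104766316 (plus strand) for *C8b* and chrX:20931556-20931805 (minus strand) for *Cfp*. The match in *Fgb* begins 80 bases upstream of the start, and the other 4 windows hold none.

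Promoter windows of 250 bases before and 50 after the start were found for 32 of the 41 members, and both strands were searched. TTNNGCAA was present in 11 of the 32 (34.4%) and in 10.8% of the 32817 windows of all genes. Its holders were *C1ra*, *C1s1*, *C3*, *C9*, *Cpb2*, *F11*, *F9*, *Fga*, *Fgb*, *Klkb1* and *Serpinc1*. TATAAA, the TATA box, was in 4 of 32 (12.5%) against 13.6%, and GAGGAA, the core read by the myeloid factor PU.1, was in 4 of 32 (12.5%) against 28.3%. These motifs do not contain one another. A match is a description of letters and not a bound site.

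The deleted gene was examined first. *Prmt3* (ENSMUSG00000030505, chr7:49778346-49858265) read 6.60, 8.49 and 10.2 CPM in Prmt3f/f tumors and 2.80, 2.03 and 3.82 CPM in Prmt3LKO tumors, where CPM are counts scaled to a common library size after TMM normalization and the values are given in the order of replicates 7, 66 and 71, then 92, 93 and 94. The groups did not overlap. The log2 fold change of Prmt3LKO over Prmt3f/f was -1.55 (SE 0.29), with an adjusted p of 0.592 by the quasi-likelihood test of edgeR with Benjamini-Hochberg adjustment, and its exact two-sided permutation p was 0.1, the smallest that 3 against 3 allows. With DESeq2 the adjusted p was 0.00357. Counts per gene do not separate reads of the deleted exons.

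Libraries held between 18440244 and 27976598 counts. The lowest count of any member in any tumor was 537, so counting error was small beside the spread between tumors. The correlation of log2 CPM was 0.946 to 0.971 within groups and 0.948 to 0.972 across groups. Hepatocyte markers were abundant in every tumor, at a summed 160508 to 228432 CPM in Prmt3f/f and 177451 to 194598 CPM in Prmt3LKO tumors. *Spp1*, the gene of osteopontin, set replicate 7 apart, at 4075 CPM against 185 to 978 CPM in the other tumors, and it made up most of the summed level of the cholangiocyte markers, which was 4103 CPM in replicate 7 and 207 to 1016 CPM elsewhere. Kidney markers summed to 3.601 to 4.81 CPM in Prmt3f/f and 8.997 to 12.9 CPM in Prmt3LKO tumors, and 3 of 4 tested (*Umod*, *Slc34a1* and *Kap*) were higher with groups that did not overlap, against 5.56% of all genes. Their log2 fold changes were 2.17 (SE 0.49), 3.499 (SE 0.68) and 1.35 (SE 0.23), each with an adjusted p of 0.592 by edgeR. *Aqp2* was at or under 3 counts in every tumor. In bulk tumors, fewer cells of a type and less RNA per cell cannot be told apart.

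The 41 genes made up 5.16% to 5.74% of all counts in a tumor. Coagulation genes took 3.28% to 4.08%, of which the fibrinogen chains alone were 1.36% to 2.15%, and complement genes took 1.65% to 2.24%. On the FPKM scale, which divides by gene length and allows levels of different genes to be compared, *Fgb* (1739), *Fgg* (1716), *C3* (1516), *Fga* (1423) and *Kng1* (1094) had the highest means over 6 tumors. The lowest were *Masp1* (19.5), *Cfp* (18.05) and *Pros1* (15.2). Fibrinogen is the final substrate of coagulation and C3 the central one of complement, while *Cfp* and *Pros1* code for a stabilizer and a cofactor. When the members are ordered by mean FPKM, 38 of the 40 neighboring pairs had overlapping ranges over the tumors, and the order was the same in all 6 tumors in 5 pairs. The pairs with separate ranges were *Plg* over *Vtn* and *Cfi* over *Serpinf2*.

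**Figure D1:**
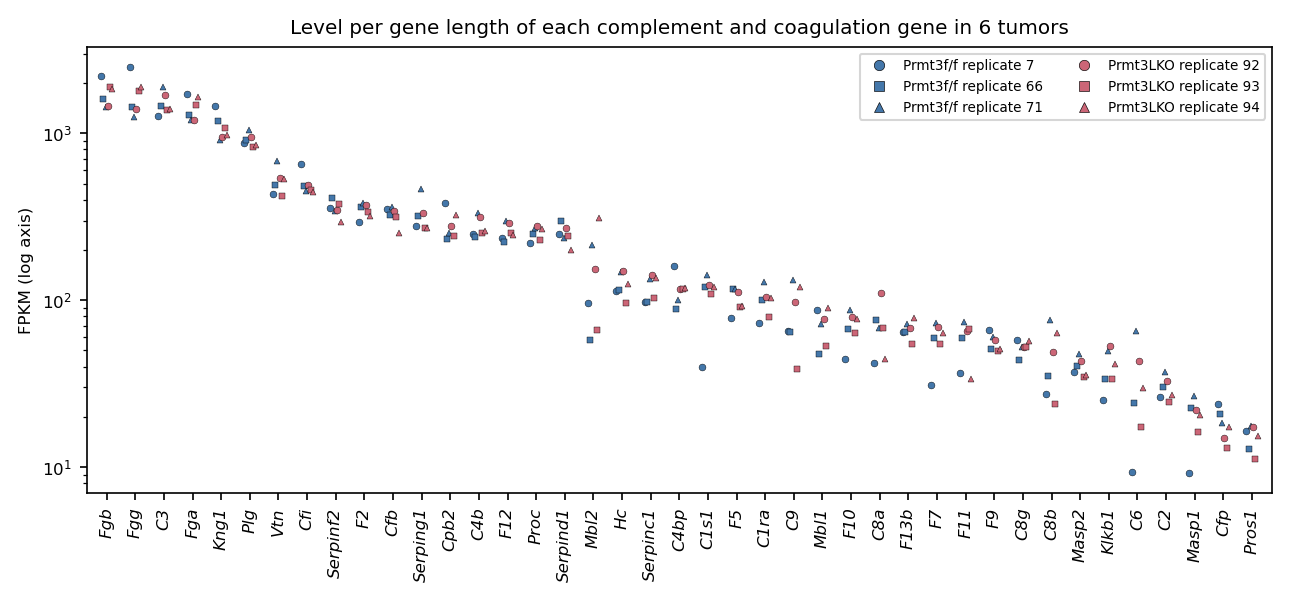
FPKM of each of the 41 genes (log axis), ordered by the mean of 6 tumors, with blue symbols for Prmt3f/f and red symbols for Prmt3LKO tumors and 1 symbol shape for each replicate of a group. Levels run from a mean of 1739 for *Fgb* to 15.2 for *Pros1*, and the colors are mixed within nearly every gene.

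None of the 41 members was called between the genotypes at an adjusted p under 0.05 and a 2-fold change by the quasi-likelihood test of edgeR, and 0% of all 13892 genes tested were. DESeq2 also called 0 members, against 0.374% of all genes, and the exact test of edgeR called 0 against 0.288%. At an unadjusted p under 0.05 the count was 1 of 41, *Cfp*, against 6.56% of all genes (4.37% lower and 2.2% higher in Prmt3LKO tumors). *Cfp* was also the 1 member whose groups did not overlap, which is 2.44% of members against 12.2% of all genes (6.6% lower and 5.56% higher). In the other 40 members the ranges of both genotypes overlapped.

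The direction was evenly divided. Of the 41 log2 fold changes 20 were negative and 21 positive, with a median of 0.0072 beside 0.00037 for all genes tested. Complement genes had 9 negative and 11 positive values, a median of 0.016 and a range of -0.45 to 0.57. Coagulation genes had 11 negative and 10 positive values, a median of -0.0011 and a narrower range of -0.22 to 0.27. The 95% interval of the difference lay within 2-fold in either direction for 21 of 21 coagulation genes and for 14 of 20 complement genes, against 9376 of all 13892 genes. The 6 members with wider intervals were *Mbl2*, *C1s1*, *C6*, *C8a*, *C8b* and *C9*. For these 6 a 2-fold difference in either or both directions lay inside the interval.

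**Figure D2:**
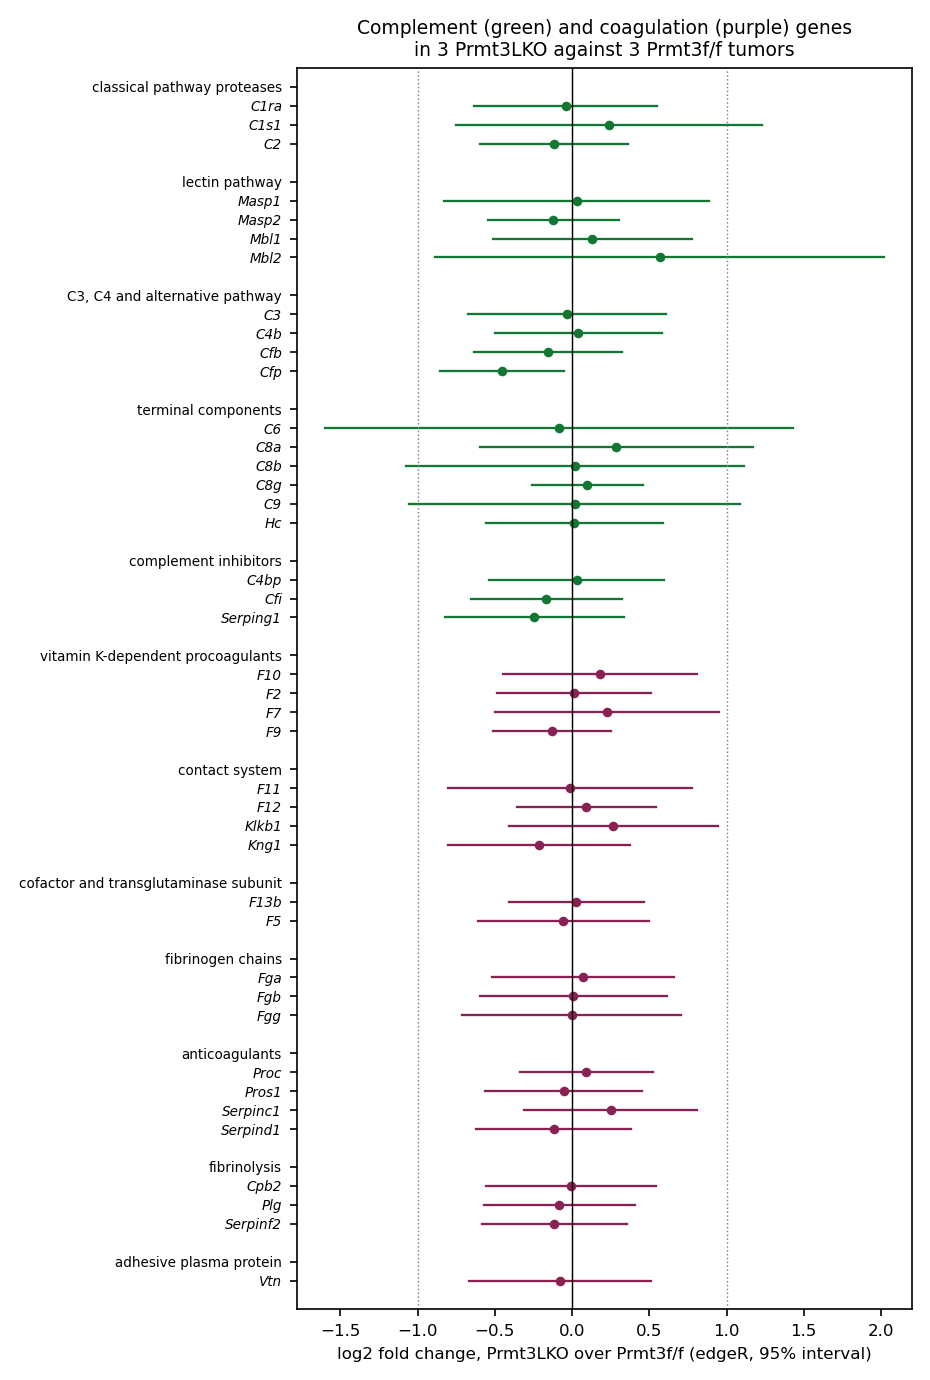
Log2 fold change of Prmt3LKO over Prmt3f/f for each of the 41 genes by role (points, complement in green and coagulation in purple) with the 95% interval (lines), from the fit of edgeR, with dotted lines at a 2-fold change. The points lie between -0.45 and 0.57, and the interval of *Cfp* alone excludes 0.

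The classical pathway proteases differed little in mean between genotypes. *C1ra* and *C1s1* code for the proteases of the C1 complex, and *C2* for the protease that joins C4 to form the C3 convertase. *C1ra* read 297 ± 82.7 CPM in Prmt3f/f and 289 ± 55.3 CPM in Prmt3LKO tumors (SD, n = 3 in each group here and in all later means), with a log2 fold change of -0.042 (SE 0.25). *C2* read 174 ± 30.4 CPM in Prmt3f/f and 161 ± 31.4 CPM in Prmt3LKO tumors (log2 fold change -0.11, SE 0.21). *C1s1* read 198, 631 and 714 CPM in Prmt3f/f tumors and 665, 536 and 619 CPM in Prmt3LKO tumors. Replicate 7 was far below the other 5 tumors, which overlapped, and the log2 fold change was 0.24 with an interval of -0.75 to 1.23. *C1ra* and *C1s1* lie next to each other on chromosome 6 and act as partners, and their FPKM ratio (*C1s1* to *C1ra*) was 0.549 in replicate 7 and 1.11 to 1.38 in the other 5 tumors. The near copies *C1rb* and *C1s2* could share reads with them.

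*Mbl2* had the largest positive log2 fold change of the members and one of the largest spreads. It codes for a mannose-binding lectin, the sugar sensor that starts the lectin pathway, and read 102, 64.9 and 232 CPM in Prmt3f/f tumors and 177, 69.7 and 345 CPM in Prmt3LKO tumors. Low and high tumors were present in both groups, with replicates 66 and 93 lowest and replicate 94 highest. The log2 fold change was 0.57 (SE 0.62, interval -0.89 to 2.02, adjusted p = 0.948 by edgeR). Its paralog *Mbl1* read 62.8 ± 17.01 CPM in Prmt3f/f and 68.9 ± 19.6 CPM in Prmt3LKO tumors (log2 fold change 0.13, SE 0.28), and the ratio of *Mbl2* to *Mbl1* in FPKM ran from 1.09 in replicate 7 to 3.42 in replicate 94. The proteases that bind these lectins overlapped as well. *Masp1* read 53.4 ± 25.1 CPM in Prmt3f/f and 54.6 ± 10.5 CPM in Prmt3LKO tumors (log2 fold change 0.032, SE 0.37), with replicate 7 lowest at 24.8 CPM. *Masp2*, which cuts C4 and C2, read 166 ± 21.4 CPM in Prmt3f/f and 152 ± 25.9 CPM in Prmt3LKO tumors (log2 fold change -0.12, SE 0.18), and the neighboring *Tardbp* overlaps its locus.

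C3 and C4 are the proteins on which the pathways meet, and their RNA differed by little. *C3* (chr17:57203970-57228136) read 7055, 8499 and 10649 CPM in Prmt3f/f tumors and 10098, 7493 and 8004 CPM in Prmt3LKO tumors. Replicates 71 and 92 were highest and replicates 7 and 93 lowest, so each genotype held a high and a low tumor. Its log2 fold change was -0.034 with an interval of -0.68 to 0.61. *C4b*, which could share reads with the near copy *C4a*, read 1709.6 ± 319 CPM in Prmt3f/f and 1759 ± 298 CPM in Prmt3LKO tumors (log2 fold change 0.041, SE 0.23). *Cfb*, the protease of the alternative C3 convertase, read 1641 ± 60.02 CPM in Prmt3f/f and 1475 ± 251 CPM in Prmt3LKO tumors (log2 fold change -0.15, SE 0.21). An unnamed gene model, Gm20547, spans *Cfb* and *C2* on the same strand with 25883 counts over the 6 tumors, beside 204967 for *Cfb* and 22137 for *C2*.

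*Cfp* was the member that differed most by test. It codes for properdin, which stabilizes the alternative C3 convertase, and its locus is chrX:20925454-20931555 (ENSMUSG00000001128). It read 47.3, 43.5 and 36.8 CPM in Prmt3f/f tumors and 32.01, 25.4 and 35.7 CPM in Prmt3LKO tumors. Every Prmt3f/f tumor was above every Prmt3LKO tumor, although replicates 71 and 94 were close, at 36.8 and 35.7 CPM. The log2 fold change was -0.45 (SE 0.17, interval -0.86 to -0.050), with p = 0.0324 and an adjusted p of 0.698 by edgeR, and the exact permutation p was 0.1. Across 13 other settings of the analysis the log2 fold change was between -0.56 and -0.33 and the adjusted p between 0.574 and 1, so *Cfp* did not pass the limit under any of them.

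Many leukocyte markers were also at lower levels in Prmt3LKO tumors, although none was called (smallest adjusted p = 0.592 by edgeR), and their part in the difference of *Cfp* was not tested. All 9 macrophage markers had negative log2 fold changes, 6 of them at an unadjusted p under 0.05 (4.37% of all genes were lower by that limit), and 4 of 9 did not overlap (6.6% of all genes lower). Their summed level was 684 to 1227 CPM in Prmt3f/f and 471 to 661 CPM in Prmt3LKO tumors. Much of this sum was *Lyz2*, whose groups overlapped. *Lyz2* read 386, 675 and 160 CPM in Prmt3f/f tumors and 133, 118 and 163 CPM in Prmt3LKO tumors. *Adgre1*, the F4/80 antigen, read 40.99, 49.9 and 41.6 CPM in Prmt3f/f tumors and 34.4, 23.8 and 36.7 CPM in Prmt3LKO tumors, whereas the Kupffer cell lectin *Clec4f* read 77.7 ± 24.7 CPM in Prmt3f/f and 74.9 ± 20.2 CPM in Prmt3LKO tumors and overlapped. Its log2 fold change was -0.052, and those of *Cd5l* and *Mrc1* were -0.091 and -0.066. In contrast, *Marco* (-2.28) and *Timd4* (-1.29) of the same list had larger negative values. The groups of both did not overlap, and each had an adjusted p of 0.592 by edgeR. Neutrophil and monocyte markers summed to 25.1 to 45.4 CPM against 11.2 to 13.3 CPM, and all 6 that were tested did not overlap, while *Ly6g* stayed at or under 3 counts in every tumor. T cell markers summed to 29.1 to 35.8 CPM against 6.74 to 20.7 CPM, with 6 of 8 not overlapping. B and plasma cell markers summed to 46.8 to 72.9 CPM against 12.6 to 45.0 CPM, with 2 of 6 not overlapping and 1 of 6 at an unadjusted p under 0.05. Of 13 hepatocyte markers, 11 had positive log2 fold changes (median 0.22, smallest unadjusted p = 0.176 by edgeR), against 6955 of all 13892 genes tested. Of 11 liver transcription factors, 3 were positive (median -0.087). In both lists 0 genes had groups that did not overlap, against 12.2% of all genes in either direction.

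Complement inhibitors were close between genotypes. *Cfi* codes for the protease that destroys C3b and C4b, *C4bp* for its cofactor, and *Serping1* for the inhibitor of C1 and of plasma kallikrein. *Cfi* read 1284 ± 242 CPM in Prmt3f/f and 1145 ± 101 CPM in Prmt3LKO tumors (log2 fold change -0.17, SE 0.21). *C4bp* read 850.3 ± 261 CPM in Prmt3f/f and 868 ± 42.4 CPM in Prmt3LKO tumors (0.030, SE 0.24), and *Serping1* read 992 ± 267 CPM in Prmt3f/f and 837 ± 137 CPM in Prmt3LKO tumors (-0.24, SE 0.25). Replicate 7 was highest for *Cfi* and *C4bp*, and replicate 71 for *Serping1*, both of them Prmt3f/f tumors, and the groups overlapped in each.

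Several terminal components varied widely between tumors of 1 genotype. The median SD of log2 CPM within groups was 0.68 for these 6 genes and 0.53 for the 4 lectin pathway genes, beside 0.30 for all 41 members and 0.28 for all genes tested, and the difference between roles was not tested. *C8g* was at 0.13 and *Hc* at 0.31. *C6*, an early subunit of the membrane attack complex, read 43.5, 119 and 307 CPM in Prmt3f/f tumors and 217, 80.1 and 145 CPM in Prmt3LKO tumors. The highest tumor was 7.05 times the lowest, both were Prmt3f/f tumors, and the log2 fold change was -0.087 (SE 0.65, interval -1.60 to 1.43). *C9*, the subunit that polymerizes into the pore, read 210.2, 217 and 428 CPM in Prmt3f/f tumors and 342, 123 and 400.2 CPM in Prmt3LKO tumors. Replicate 93 was lowest and replicates 71 and 94 highest, and the log2 fold change was 0.017 (SE 0.46). *Hc*, the gene of C5, whose cleavage starts the complex, read 862 ± 132 CPM in Prmt3f/f and 871 ± 226 CPM in Prmt3LKO tumors (log2 fold change 0.016, SE 0.25) with replicate 93 again lowest at 641 CPM. *C6* and *C9* were singled out for their spread after their values were seen.

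C8 is a complex of 3 chains, and its genes did not share 1 pattern. *C8a* read 274, 521 and 454 CPM in Prmt3f/f tumors and 778, 443 and 304 CPM in Prmt3LKO tumors. Replicate 92 was highest and replicate 7 lowest, and the log2 fold change was 0.29 (SE 0.38, interval -0.60 to 1.17). *C8b*, the next gene on chromosome 4, read 89.2, 119.9 and 249 CPM in Prmt3f/f tumors and 172, 76.1 and 216 CPM in Prmt3LKO tumors. Here replicates 71 and 94 were highest, the same replicate 94 that was second lowest for *C8a*, and the log2 fold change was 0.021 (SE 0.47). *C8g*, which lies on chromosome 2 and codes for the lipocalin chain, read 176, 142 and 162 CPM in Prmt3f/f tumors and 173, 158 and 183 CPM in Prmt3LKO tumors. It was the steadiest of the 41 genes, its highest tumor 1.29 times its lowest, with a log2 fold change of 0.10 (SE 0.15), and *Fbxw5* overlaps its locus on the other strand. In FPKM the ratio of *C8a* to *C8b* ran from 0.696 in replicate 94 to 2.88 in replicate 93, and that of *C8g* to *C8b* from 0.691 to 2.19. Both ratios overlapped between genotypes (exact permutation p = 0.7 and 0.9).

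**Figure D3:**
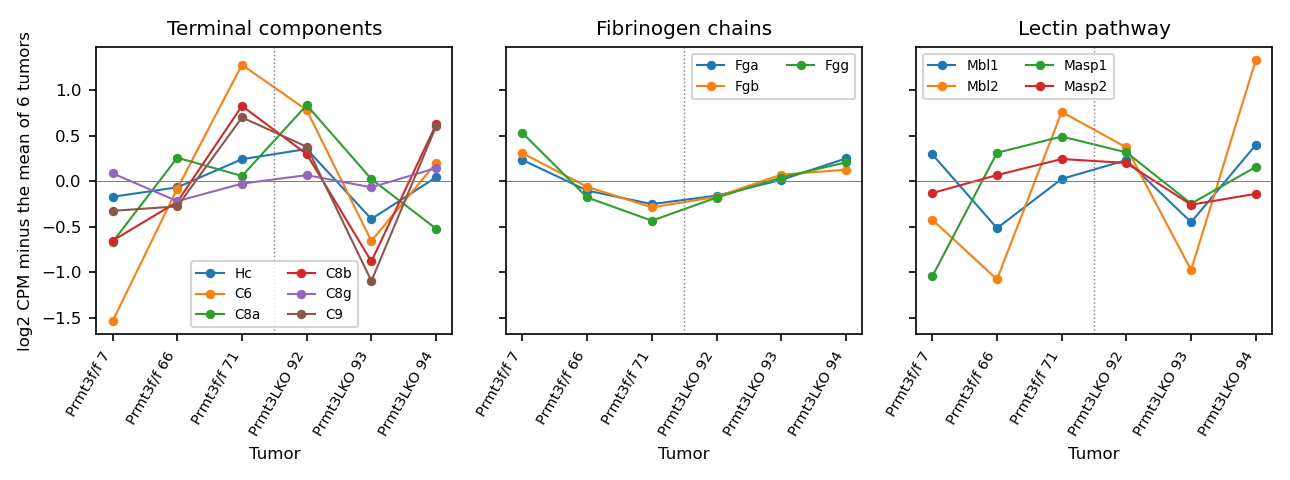
Log2 CPM of each gene minus its mean over 6 tumors, by tumor, for the 6 terminal components, the 3 fibrinogen chains and the 4 lectin pathway genes (the lines only join the points of a gene, and the dotted line parts Prmt3f/f from Prmt3LKO tumors). The fibrinogen chains keep close to one another, whereas *C6* is spread 7.05-fold and *C8g* 1.29-fold between its lowest and highest tumor.

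The fibrinogen chains moved together between tumors, with both genotypes in 1 range. *Fga*, *Fgb* and *Fgg* lie side by side on chromosome 3 and code for the 3 chains of fibrinogen, the precursor of fibrin. *Fga* read 6989, 5538 and 4994 CPM in Prmt3f/f tumors and 5327, 6004 and 7073 CPM in Prmt3LKO tumors. *Fgb* read 8124, 6293 and 5380.4 CPM in Prmt3f/f tumors and 5826, 6902 and 7168 CPM in Prmt3LKO tumors. *Fgg* read 5764, 3528 and 2957 CPM in Prmt3f/f tumors and 3524, 4106 and 4610.2 CPM in Prmt3LKO tumors. Replicate 71 was lowest for each chain, replicate 7 was highest for *Fgb* and *Fgg*, and replicate 94 was marginally above it for *Fga*, so the groups overlapped. The log2 fold changes were 0.071 (SE 0.25) for *Fga*, 0.0072 (SE 0.26) for *Fgb* and -0.0011 (SE 0.30) for *Fgg*. The FPKM ratio of *Fgb* to *Fga* stayed between 1.12 and 1.28. That of *Fgg* to *Fga* was 1.46 in replicate 7 and 1.05 to 1.21 in the other tumors, and it overlapped between genotypes (exact permutation p = 1). Fibrinogen is an acute phase protein, and a list of 13 acute phase genes outside the members summed to 12364 to 14576 CPM in Prmt3f/f and 11648 to 15659 CPM in Prmt3LKO tumors. A sum is set by its most abundant genes, and *Hpx* of this list is also a hepatocyte marker. The 13 log2 fold changes ran from -4.06 to 0.28 (median -0.076, smallest adjusted p = 0.592 by edgeR). Groups did not overlap in 1 of the 13, which was lower in Prmt3LKO tumors, against 6.6% of all genes.

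The vitamin K-dependent procoagulants code for thrombin and the proteases upstream of it. *F2*, the gene of prothrombin, read 1902 ± 275 CPM in Prmt3f/f and 1919 ± 219 CPM in Prmt3LKO tumors (log2 fold change 0.013, SE 0.21). *F9*, mutated in hemophilia B, read 159.8 ± 16.7 CPM in Prmt3f/f and 146 ± 18.9 CPM in Prmt3LKO tumors (-0.13, SE 0.16), and *F10*, whose protease cuts prothrombin, read 360.1 ± 116 CPM in Prmt3f/f and 408 ± 63.6 CPM in Prmt3LKO tumors (0.18, SE 0.27). *F7*, which pairs with tissue factor to start the cascade, read 56.1, 113 and 133 CPM in Prmt3f/f tumors and 136, 96.99 and 120.2 CPM in Prmt3LKO tumors. Replicate 7 was lowest and replicates 71 and 92 highest, and the log2 fold change was 0.23 (SE 0.31, interval -0.50 to 0.95). *F7* and *F10* are neighbors on chromosome 8, and replicate 7 was the lowest tumor for both.

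The contact system genes had log2 fold changes of both signs, and the groups overlapped in each. *Klkb1*, the gene of plasma prekallikrein, had the largest log2 fold change of the coagulation genes and read 61.6, 86.5 and 122 CPM in Prmt3f/f tumors and 139.6, 80.8 and 105 CPM in Prmt3LKO tumors. Replicates 92 and 71 were highest and replicate 7 lowest, and the log2 fold change was 0.27 (SE 0.29, interval -0.41 to 0.95). *Cyp4v3*, with 32908 counts beside 12972 for *Klkb1*, overlaps its locus on the same strand. *Kng1*, the gene of kininogen, the substrate of kallikrein, read 6017 ± 1335 CPM in Prmt3f/f and 5181 ± 100.3 CPM in Prmt3LKO tumors (-0.22, SE 0.25), and it could share reads with the near copy *Kng2*. *F12*, which starts the contact pathway, read 558 ± 82.7 CPM in Prmt3f/f and 595 ± 78.99 CPM in Prmt3LKO tumors (0.093, SE 0.19), and *F11*, its target, read 126 ± 42.5 CPM in Prmt3f/f and 125 ± 42.8 CPM in Prmt3LKO tumors (-0.013, SE 0.34).

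Anticoagulants and the remaining coagulation genes also overlapped between genotypes. *Serpinc1*, the gene of antithrombin, read 1015, 1074 and 1410.1 CPM in Prmt3f/f tumors and 1604, 1068 and 1489 CPM in Prmt3LKO tumors. Replicate 92 was highest, yet replicate 71 was above replicate 93, and the log2 fold change was 0.25 (SE 0.24, interval -0.31 to 0.81, adjusted p = 0.938 by edgeR). *Serpind1*, the gene of heparin cofactor II, read 996 ± 157 CPM in Prmt3f/f and 916 ± 158 CPM in Prmt3LKO tumors (-0.12, SE 0.22). *Proc*, the gene of protein C, read 384 ± 43.9 CPM in Prmt3f/f and 409 ± 58.6 CPM in Prmt3LKO tumors (0.094, SE 0.19), and *Pros1*, the gene of its cofactor protein S, read 70.95 ± 9.68 CPM in Prmt3f/f and 68.3 ± 17.5 CPM in Prmt3LKO tumors (-0.055, SE 0.22).

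*F5*, the cofactor of factor Xa, read 770.3 ± 180.2 CPM in Prmt3f/f and 741 ± 116 CPM in Prmt3LKO tumors (-0.056, SE 0.24), and *F13b*, the carrier subunit of the transglutaminase that crosslinks fibrin, read 174 ± 11.2 CPM in Prmt3f/f and 177 ± 36.1 CPM in Prmt3LKO tumors (0.028, SE 0.19). Of the fibrinolysis genes, *Plg*, the gene of plasminogen, read 2582 ± 259 CPM in Prmt3f/f and 2439 ± 288 CPM in Prmt3LKO tumors (-0.082, SE 0.21). *Serpinf2*, which codes for the inhibitor of plasmin, read 1449 ± 177 CPM in Prmt3f/f and 1339 ± 147 CPM in Prmt3LKO tumors (-0.11, SE 0.20). *Cpb2*, whose carboxypeptidase protects fibrin from plasmin, read 421 ± 111 CPM in Prmt3f/f and 419 ± 69.6 CPM in Prmt3LKO tumors (-0.0054, SE 0.24). *Vtn*, the gene of the adhesive protein vitronectin, read 1802 ± 434 CPM in Prmt3f/f and 1708 ± 291 CPM in Prmt3LKO tumors (-0.077, SE 0.25). In each of these genes the groups overlapped.

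The members varied from tumor to tumor within each genotype. Replicate 71 was the highest tumor for 14 of the 41 members and replicate 92 for 11, whereas replicates 7 and 93 were each the lowest for 14. Replicate 93 was the highest for 0 members and replicate 92 the lowest for 0. The median log2 deviation of the members from their mean over tumors was -0.18, -0.0061 and 0.19 in Prmt3f/f replicates 7, 66 and 71 and 0.23, -0.19 and 0.062 in Prmt3LKO replicates 92, 93 and 94. The highest and lowest medians were thus found within the Prmt3LKO group. The ratio of the highest to the lowest tumor had a median of 1.59 over the members and 1.71 over all genes tested, and it exceeded that of *C8a* (2.84) in *Masp1*, *C8b*, *C9*, *C1s1*, *Mbl2* and *C6*. The within-group SD of log2 CPM was above 0.5 in 8 of the 41 members, 7 of them complement genes, against 2925 of all 13892 genes tested.

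**Figure D4:**
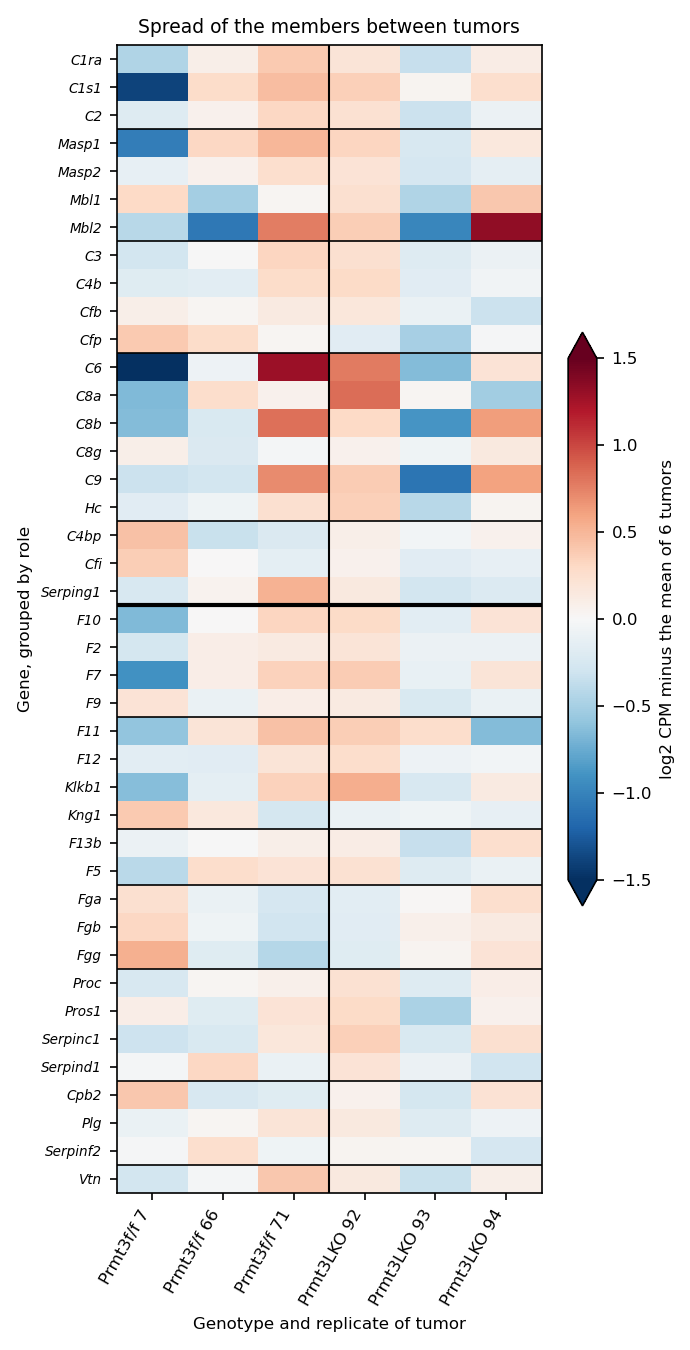
Log2 CPM minus the mean of 6 tumors for each of the 41 genes (rows, grouped by role, with a thick line between complement and coagulation) in each tumor (columns, Prmt3f/f left and Prmt3LKO right), where red is above and blue below the mean and the color scale ends at 1.5. Replicates 71 and 92 are red, and replicates 7 and 93 blue, in many rows of both arms.

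Liver transcription factors that act on such promoters overlapped between genotypes. *Hnf4a* read 707 ± 41.3 CPM in Prmt3f/f and 688 ± 68.95 CPM in Prmt3LKO tumors (log2 fold change -0.038, SE 0.17). *Cebpa*, of the C/EBP family whose site is marked in the promoter of *Fgb*, read 193 ± 41.3 CPM in Prmt3f/f and 258 ± 34.7 CPM in Prmt3LKO tumors (0.42, SE 0.20), with an unadjusted p of 0.0759 and an adjusted p of 0.775 by edgeR. *Cebpb*, of the same family, had the other sign. It read 161 ± 59.4 CPM in Prmt3f/f and 147 ± 19.8 CPM in Prmt3LKO tumors (-0.13, SE 0.28). Of the 11 factors listed, 1 had an unadjusted p under 0.05, *Prox1*, with a log2 fold change of -0.62 (SE 0.21) and an adjusted p of 0.648 by edgeR, and its groups overlapped.

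Receptors, regulators and other genes of the 2 cascades were listed apart from the members. Of 32 complement and 29 coagulation genes found in the table, 27 and 26 were tested, and edgeR called 0 of either. At an unadjusted p under 0.05, 4 complement genes were lower in Prmt3LKO tumors (*Itgam*, *Itgb2*, *Itgax* and *C3ar1*), 14.8% of 27 against 4.37% of all genes, and 0 were higher, while 0 coagulation genes passed in either direction. DESeq2 and the exact test of edgeR each called 1 complement gene, *Itgam*, which was lower, and 0 coagulation genes, against 0.31% and 0.252% of all genes called lower. The median log2 fold change was -0.12 for the complement list and -0.15 for the coagulation list. Groups did not overlap in 3 complement genes (11.1% of 27) and in 4 coagulation genes (15.4% of 26), all lower in Prmt3LKO tumors, against 6.6% of all genes. The coagulation genes were *Thbd*, the gene of thrombomodulin, *Procr*, the protein C receptor, *F2r*, a thrombin receptor, and *Hrg*, a plasma glycoprotein, and their smallest unadjusted p was 0.0515.

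The complement receptors on leukocytes had the larger log2 fold changes. *Itgam* codes for the alpha chain of complement receptor CR3 and read 8.96, 17.4 and 3.09 CPM in Prmt3f/f tumors and 1.43, 0.857 and 1.06 CPM in Prmt3LKO tumors. All 3 Prmt3f/f tumors were above all 3 Prmt3LKO tumors, with replicate 66 highest, and the log2 fold change was -3.14 (SE 0.62, p = 0.0011 and adjusted p = 0.592 by edgeR, exact permutation p = 0.1). A second identifier named *Itgam* overlaps it on the same strand, and the summed counts gave -2.56. Without replicate 66 the log2 fold change was -2.43, and on FPKM with a pseudocount of 1 it was -0.95. *Itgb2*, the beta chain that CR3 shares with CR4, read 29.4, 56.96 and 39.2 CPM in Prmt3f/f tumors and 18.2, 22.8 and 24.02 CPM in Prmt3LKO tumors, with a log2 fold change of -0.95 (SE 0.25, adjusted p = 0.592 by edgeR). *Itgax*, the alpha chain of CR4, read 13.4, 16.2 and 12.97 CPM in Prmt3f/f tumors and 4.23, 8.75 and 7.99 CPM in Prmt3LKO tumors, with -1.02 (SE 0.28, adjusted p = 0.606 by edgeR). These integrins are also made by myeloid cells in general, whose markers are given beside *Cfp*, and the part of those cells in the differences was not tested. *C1qa*, the gene of a C1q chain made by macrophages, read 98.2, 95.1 and 74.9 CPM in Prmt3f/f tumors and 64.6, 53.2 and 80.1 CPM in Prmt3LKO tumors. Replicate 94 was above replicate 71, so the groups overlapped, and the log2 fold change was -0.44 (SE 0.19, p = 0.0558 and adjusted p = 0.766 by edgeR, exact permutation p = 0.2).

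**Figure D5:**
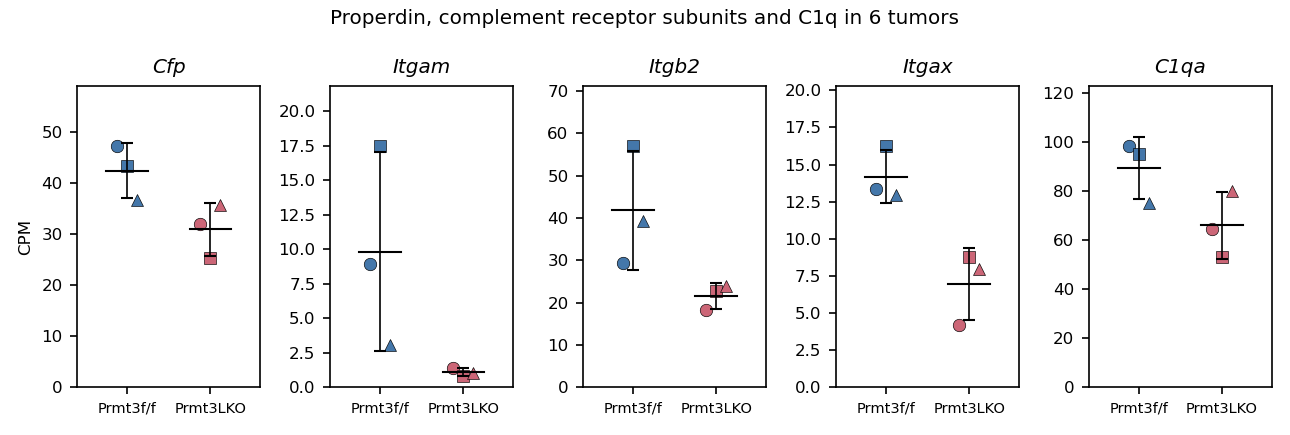
CPM of *Cfp*, *Itgam*, *Itgb2*, *Itgax* and *C1qa* in Prmt3f/f (blue) and Prmt3LKO (red) tumors, where points are tumors, horizontal lines are means and bars are the SD of 3 tumors, and each panel starts at 0. The groups are apart in the first 4 genes and overlap in *C1qa*, and all 5 have an adjusted p of at least 0.592 by edgeR.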

How the data were processed

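Total RNA of 6 mouse liver tumors was sequenced as paired-end reads, 1 library for each tumor. The processing notes of the submitters name bcl2fastq 2.19, HISAT2 2.0.4, StringTie 1.3.0 and GRCm38, and the paper gives HISAT2 as the aligner. The counter, the annotation and the use of strand are not given in the sources used here. The authors deposited for each gene a read count, which is not normalized, and an FPKM value, which divides the count by gene length and library total. The relation of both units was checked on 8975 genes with a count of 100 or more in each tumor, and 0 columns of values were left unused. Of 34745 genes, 59 symbols had more than 1 identifier, and the one with the largest total count was used.

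Groups were taken from the titles and genotypes in the labels. Counts were filtered with filterByExpr (minimum count 10, minimum total 15), scaled by TMM and compared in edgeR 4.0.16 (R 4.3.3) by its quasi-likelihood test over 13892 genes, with Benjamini-Hochberg adjustment. Calls required an adjusted p under 0.05 and a 2-fold difference in either direction. Intervals are 95% intervals of the fit. The log2 CPM used a prior count of 2, and single values were compared by the exact two-sided permutation test. The fit was tested on simulated data with 13686 genes tested, at an adjusted p under 0.05 without a fold limit. The quasi-likelihood test found 21 of 100 2-fold and 77 of 99 4-fold changes, with 19 false calls. DESeq2 found 51 and 84 of these with 52 false calls, and the exact test of edgeR 48 and 86 with 49. The changed genes were drawn at random from all genes that passed the filter, so these rates are not specific to the members. A member that was not called may thus still differ. The 95% interval lay within 2-fold for 35 of the 41 members and reached past it in *Mbl2*, *C1s1*, *C6*, *C8a*, *C8b* and *C9*.

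The members and lists were chosen with earlier results of these data known. Tumor values are given for members with groups that do not overlap or an unadjusted p under 0.05, for the 3 largest changes of each arm, and for fibrinogen and C8 chains. Other members (*C1s1*, *C3*, *C6* and *C9*) were given in every tumor after their values were seen. Other pathway genes are named where groups do not overlap and the unadjusted p is under 0.05, and further ones were chosen after their values were seen. Of the hepatocyte markers 13 of 14 were found. Alternatives were DESeq2 1.42.0, no TMM, limma-voom (limma 3.58.1), the edgeR exact test, a looser filter of 1 count, a stricter one of 1 CPM in the mean, log2 of FPKM plus 1, and each tumor left out in turn. Intervals for counting error were not needed at a lowest member count of 537. RefSeq promoter windows were matched by symbol. Some items are not reported here.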

Additional observations from a re-analysis of the deposited data

How the results depend on the processing

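Under 13 alternatives 0 members of either arm were called, and the smallest adjusted p of a member was 0.574 (*Cfp*). Of the 41 members, 29 changed sign under at least 1 alternative and 12 (*Masp2*, *Cfb*, *Cfp*, *C8g*, *Cfi*, *Serping1*, *F9*, *Klkb1*, *Kng1*, *Serpinc1*, *Plg* and *Serpinf2*) kept it under all. Other complement genes called were 1 with DESeq2 and 1 with the exact test of edgeR, in both cases *Itgam*, whose adjusted p ran from 9.33e-05 to 0.996 over the alternatives. All genes called were 52 of 13892 with DESeq2 (43 lower) and 40 with the exact test (35 lower). The log2 fold change of *Prmt3* was -1.55 with DESeq2 (adjusted p = 0.00357) and -1.55 with the exact test of edgeR (adjusted p = 0.00735), both past the limit. On log2 of FPKM plus 1 the difference was -0.81. There the added 1 is not small beside the mean FPKM of *Prmt3*, 1.85 in Prmt3f/f and 0.62 in Prmt3LKO tumors. With tumors left out the log2 fold change of *Prmt3* ran from -1.80 to -1.34. The median log2 fold change of complement members ran from -0.16 (without replicate 7) to 0.15 (without replicate 71), and that of coagulation members from -0.056 (without replicate 7) to 0.061 (without replicate 93). Members with groups that do not overlap numbered 1 to 3 lower (3 without replicate 92, 2 without replicate 7 and 2 without replicate 71) and 0 to 3 higher (3 without replicate 93, 1 without replicate 7 and 1 without replicate 71). With 1 tumor left out, 9.49% to 14% of all genes did not overlap and were lower, and 8.44% to 13.2% were higher. *Mbl2* went from 1.24 without replicate 71 to -0.11 without replicate 94, and *C6* from -0.54 without replicate 7 to 0.86 without replicate 71. Settings added after seeing the data, at an unadjusted p under 0.05 and no fold limit, gave 1 complement member with edgeR and 1 with DESeq2, 4 other complement genes with each, and 2 other coagulation genes with DESeq2 (0 with edgeR), against 6.73% of all genes with DESeq2. Why these values moved was not tested. The number of tumors, 3 in a group, limits the precision. No paired analysis was possible because the groups share no replicate numbers.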
